A study of Mus musculus with 4 samples.

Results

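Cxcl1, Cxcl2, Cxcl3, Cxcl5 and Cxcr2 encode chemokines that attract neutrophils and the receptor through which they act. These 5 genes, of 19059 genes in the probe set, were followed through every cell class and library of a single-cell RNA-seq experiment on MC38 tumors. They were chosen by name for their shared function, with earlier results of these data known. MC38, a mouse colon carcinoma line, was grown under the skin of humanized CTLA-4 mice (B-hCTLA-4, on C57BL/6), and treatment began when tumors were near 100 mm3. One group received isotype control (hIgG1, 10 mg/kg). Another received a combination of ipilimumab, a human IgG1 against human CTLA-4, at 10 mg/kg and anti-mouse FcgRII (AT130-2, mIgG1 with N297A, 20 mg/kg), an antibody against the inhibitory Fc gamma receptor. A further pair of groups received 1 antibody each, but for both of these libraries the title and the treatment field name different antibodies. They are therefore called titled anti-human CTLA-4 and titled anti-mouse FcgRII, and no antibody was assigned to them. The study asked how blocking FcgRII alters the immune cells of tumors treated with anti-CTLA-4.

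CD45-positive cells were sorted on day 8, after 3 treatments, from the pooled tumors of 11 mice per group, so each of the 4 groups is 1 library. Doses, numbers of mice and the day are those of the sample records, and the article describes other doses, another number of tumors and another day. No test between groups was possible, and the intervals given are 95% intervals for counting error alone. Differences between mice, or between library preparations, cannot be told apart from differences between treatments. Before sorting, the cells had passed a density gradient meant for lymphocytes, so the share of neutrophils is that of the cells recovered from it. Kept libraries held 5779 to 7219 cells for the antibody-treated groups and 7741 for isotype control, with median depths of 14261 to 18524 UMIs per cell, a UMI being 1 counted transcript molecule. No cell barcode was shared between libraries in full, but 712 to 1148 droplet barcodes were shared between pairs of libraries, which were pooled in 1 run. Fixed probes were counted, not whole transcripts, so levels of different genes are not on a common scale per length.

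In mice, CXCL1, CXCL2, CXCL3 and CXCL5 are ligands of CXCR2, a G protein-coupled receptor by which neutrophils leave the bone marrow and enter inflamed tissue. The ligand genes are early targets of NF-kB in macrophages, neutrophils, fibroblasts and epithelial cells exposed to interleukin-1, TNF or microbial products, and their transcripts decay quickly. In tumors the same ligands draw in neutrophils and other CXCR2-positive myeloid cells.

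The 4 ligand genes lie on the plus strand of chromosome 5 within 147 kb (GRCm38, GENCODE M21). Cxcl5 lies at chr5:90759360-90761624, Cxcl3 at chr5:90786103-90789600, Cxcl1 at chr5:90891241-90893115 and Cxcl2 at chr5:90903871-90905938, and each has 4 exons in its first listed transcript. The end of Cxcl1 and the start of Cxcl2 are 10.8 kb apart. Cxcr2 lies at chr1:74153989-74161246, also on the plus strand. The 3 ligands that were measured at appreciable levels were all higher in macrophages of the combination than in those of isotype control. The summed level of the receptor was also higher, at 4.68 against 0.905 CPM. Neutrophil RNA estimated in these macrophages, as described below, amounted to 156% of its level in the combination. Whether the promoters bear on these differences was not tested. The 120 bases before the RefSeq start are shown for these ligands and the receptor (GRCm38.p6, plus strand, 5′ to 3′, capitals marking matches to the NF-kB consensus).
Cxcl1, chr5:90891125-90891244: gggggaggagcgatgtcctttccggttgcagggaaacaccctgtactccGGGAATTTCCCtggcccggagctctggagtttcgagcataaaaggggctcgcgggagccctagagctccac
Cxcl2, chr5:90903779-90903898: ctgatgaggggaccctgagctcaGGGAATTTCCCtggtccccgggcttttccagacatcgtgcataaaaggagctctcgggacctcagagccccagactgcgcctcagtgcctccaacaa
Cxcl3, chr5:90785981-90786100: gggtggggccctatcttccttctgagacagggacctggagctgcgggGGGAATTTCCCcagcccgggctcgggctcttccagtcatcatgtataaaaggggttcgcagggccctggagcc
Cxcr2, chr1:74153874-74153993: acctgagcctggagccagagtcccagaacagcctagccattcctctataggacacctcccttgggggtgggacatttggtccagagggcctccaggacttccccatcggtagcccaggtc

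A Cxcl5 promoter was not analysed here. Each of the 3 ligand promoters shown held the same 11-base run, GGGAATTTCCC, which begins 71 bases before the start in Cxcl1, 97 in Cxcl2 and 73 in Cxcl3. Read on both strands the run gives 2 overlapping matches to the NF-kB consensus. Of 32851 promoters of 300 bases in the RefSeq table, 8.46% held at least 1 match and 1.22% held 2 or more. The 300-base Cxcr2 window held none. The letters TATAAA, searched on both strands, occurred in 13.6% of these promoters and, of the 4 promoters searched, in that of Cxcl3. A match describes the letters only. The transcripts are also alike. In their most similar stretches, Cxcl2 and Cxcl3 shared 50 of 50 bases, Cxcl1 shared 45 of 50 with each of them, and Cxcl5 shared 34 to 36 of 50 with the other ligands. The probe positions are not given in the sources used here, so counts of Cxcl2 and Cxcl3 are uncertain to the extent that a probe lies in such a stretch.

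The cells were clustered without the 5 genes and classes were named from marker lists. Neutrophils (727 of 26785 cells) showed 14 of 14 of their markers at least 2-fold above the other cells. Dendritic cells (602 cells) showed 13 of 13, monocytes (2804 cells) 8 of 10, and macrophages (13101 cells) 6 of 11. A further 3304 cells in 2 clusters carried both monocyte and macrophage genes and are called unnamed monocyte or macrophage cells. The tumor or stromal class (283 cells) rested on collagen genes, with 6 of 11 markers. Epcam, Krt8, Krt18, Pecam1 and Kdr were not raised in it, and its Ptprc (CD45) level was 16.9 counts per 1000000 UMIs (CPM), against 334 or more in every other cluster, so these cells do not match the labelled CD45-positive gate. Neutrophils were 1.51% of cells in isotype control, 1.54% in titled anti-human CTLA-4, 0.865% in titled anti-mouse FcgRII and 6.47% in the combination.

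Neutrophils had, among the classes, the highest CPM of Cxcl2, Cxcl3 and Cxcr2 in all 4 libraries. Cxcl2, also known as MIP-2, made up 7307 CPM of neutrophil UMIs in isotype control, 10457 in titled anti-human CTLA-4, 6957 in titled anti-mouse FcgRII and 10462 in the combination. The 2 higher libraries had like levels (ratio 1, counting interval 0.969 to 1.03), but 1 cell held 532 of the 4429 UMIs of titled anti-human CTLA-4. Without the richest cell of each library, titled anti-human CTLA-4 was at 9289 CPM and the combination at 10234. With all cells the combination stood 1.43-fold above isotype control (1.39 to 1.48). As a mean over cells Cxcl2 was 119 UMIs per 10000 in isotype control and 130 in the combination. Macrophage RNA in the class also differed between libraries. In neutrophils of at least 1883 UMIs, split by a Cxcr2 UMI, C1qa was 2203 to 2261 CPM in isotype control. It was 781 to 1379 in titled anti-human CTLA-4, 2664 to 3967 in titled anti-mouse FcgRII and 178 to 1386 in the combination. Its part in these levels was not tested. Cxcl3 followed at 518, 815, 339 and 1089 CPM in the same order, 2.1-fold above isotype control in the combination (1.87 to 2.37). Cxcr2, the receptor, was at 992, 1346, 980 and 1040 CPM. It was 1.36-fold above isotype control in titled anti-human CTLA-4 (1.21 to 1.52), near the 1.43 of Cxcl2 there, while the ratio for the combination was 1.05 (0.959 to 1.15). Among single clusters, the 58 cells of cluster 26, led by the basophil gene Mcpt8, held Cxcr2 at 1136, 1252, 1593 and 1591 CPM. These levels rested on 33, 10, 3 and 12 cells and lay above those of neutrophils except in titled anti-human CTLA-4. Cxcl1 was low in neutrophils, with 6, 4, 0 and 61 UMIs, or 9.63, 9.44, 0 and 28.1 CPM. No Cxcl5 UMI was found in 727 neutrophils, which allows a share of up to 0.413% with a UMI.

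**Figure D1:**
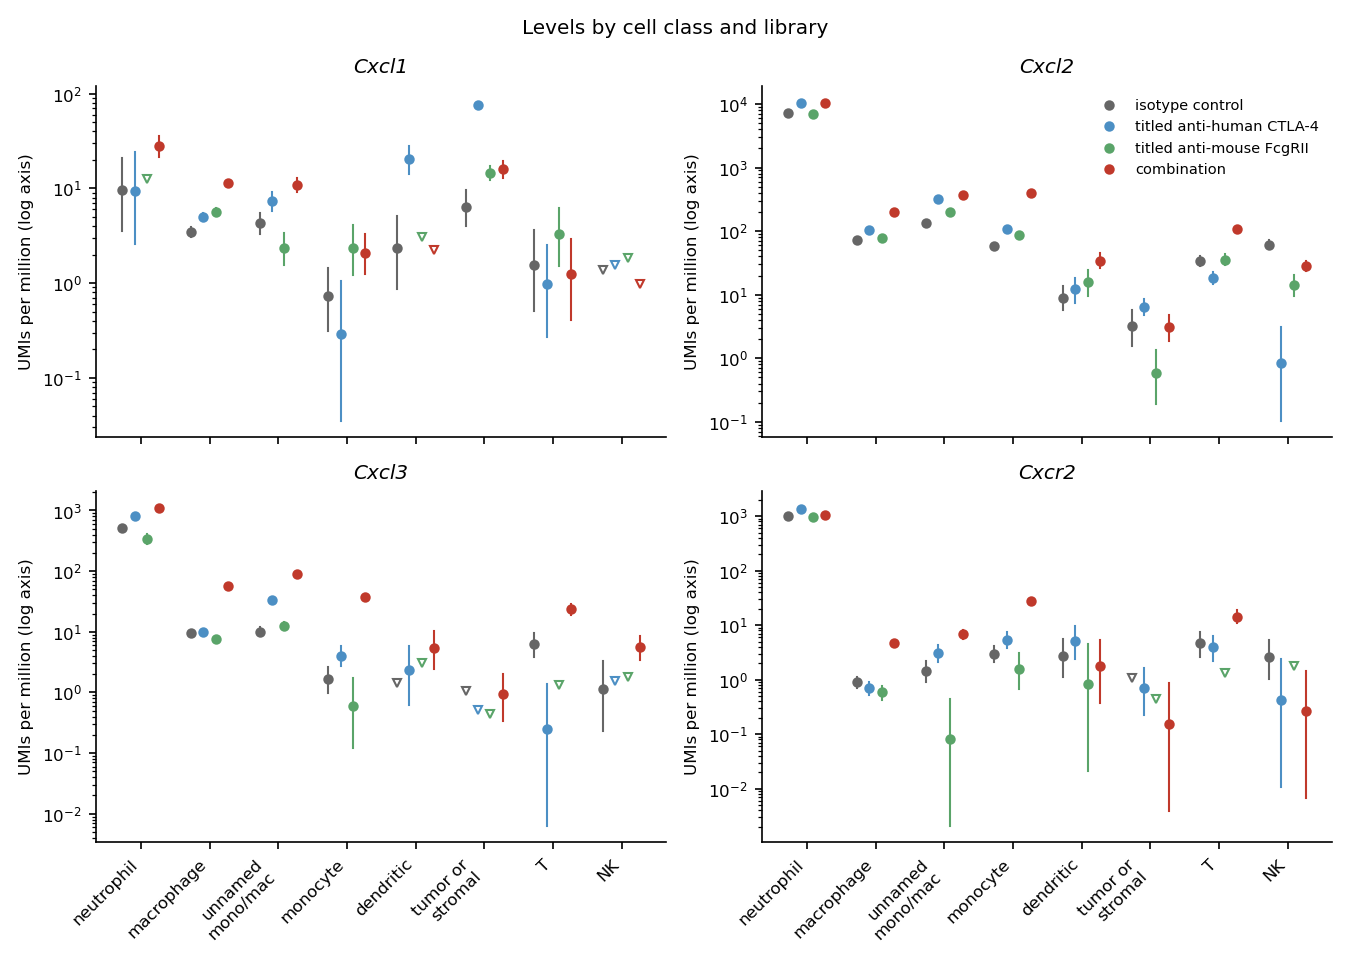
Level of Cxcl1, Cxcl2, Cxcl3 and Cxcr2 (CPM of the class, log axis) in 8 cell classes and 4 libraries. Points are summed levels, bars are 95% Poisson intervals and open triangles are upper limits where no UMI was counted. Cxcl2, Cxcl3 and Cxcr2 are highest in neutrophils, and red points (combination) exceed grey ones (isotype control) for all 4 genes in macrophages. Neutrophil RNA in other classes, estimated at 156% of macrophage Cxcr2 in the combination, is not taken off.

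In neutrophils, 2 of the 4 members tested, Cxcl1 and Cxcl3, were at least 2-fold above isotype control in the combination (a member was tested with 20 or more UMIs in the larger sum), against 4.45% of 7754 genes, and none was 2-fold lower, against 8.15%. The median ratio over all genes was 0.866. With each cell counted equally the Cxcl3 ratio was 1.68, and with cells of at least 1000 detected genes it was 3.43, so whether it passes 2-fold depends on how cells are weighted and chosen. Against titled anti-human CTLA-4 only Cxcl1 passed (61 against 4 UMIs, 5.47% of genes higher and 2.08% lower), and against titled anti-mouse FcgRII Cxcl1 and Cxcl3 did (5.38% higher and 7.7% lower). In neither single-antibody library was any of 3 tested members 2-fold from isotype control, where 2.4% of genes were higher and 12.8% lower in titled anti-human CTLA-4, and 1.61% higher and 7.1% lower in titled anti-mouse FcgRII.

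More neutrophils carried Cxcl2 in the combination. After each cell was thinned to 1883 UMIs, leaving out 5 to 54 shallower neutrophils per library, the share with a Cxcl2 UMI was 71.1% (61.8 to 79.6) in isotype control, 80.6% (70.9 to 88.3) in titled anti-human CTLA-4, 75.6% (60.5 to 87.1) in titled anti-mouse FcgRII and 92.9% (90.1 to 95.2) in the combination. Before thinning the shares were 76.9%, 82.8%, 80% and 93.8%, at median depths of 3026 to 3489 UMIs. The interval of the combination lay above those of the other libraries. In T cells, which should lack this gene, the thinned share was 1.28 to 4.67%, at median depths of 4011 to 5625 UMIs. For Cxcl3 the thinned neutrophil shares were 27.6%, 36.9%, 19.2% and 47.3% in the same order, and for Cxcr2 they were 61.1%, 66.8%, 70.2% and 61.2%, with overlapping intervals. Neutrophils with a Cxcl2 UMI carried a median of 24 to 39 of them in each library (unthinned), with up to 533 in 1 cell.

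Cxcl2 was found more often in neutrophils without a Cxcr2 UMI than in those with one. At the fixed depth, 58.4% (46.3 to 71) of isotype control neutrophils with Cxcr2 had Cxcl2, against 91.4% (77.4 to 97.3) of those without. In titled anti-human CTLA-4 the shares were 73.8% and 94.4%, in titled anti-mouse FcgRII 71.3% and 84.9%, and in the combination 90.4% (86.2 to 93.8) and 96.7% (92.9 to 99). The order was the same in all 4 libraries, but the intervals were apart only in isotype control and overlapped in the other 3. For S100a8, an alarmin gene abundant in blood neutrophils, the cells were split by a Cxcr2 UMI before thinning (76 with and 32 without in isotype control). It was higher in the cells with Cxcr2 in all 4 libraries, at 15429 against 3502 CPM in isotype control and 10970 against 7498 CPM in the combination. Both groups held macrophage RNA, with C1qa at 178 to 3967 CPM, and its part in these values was not tested.

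**Figure D2:**
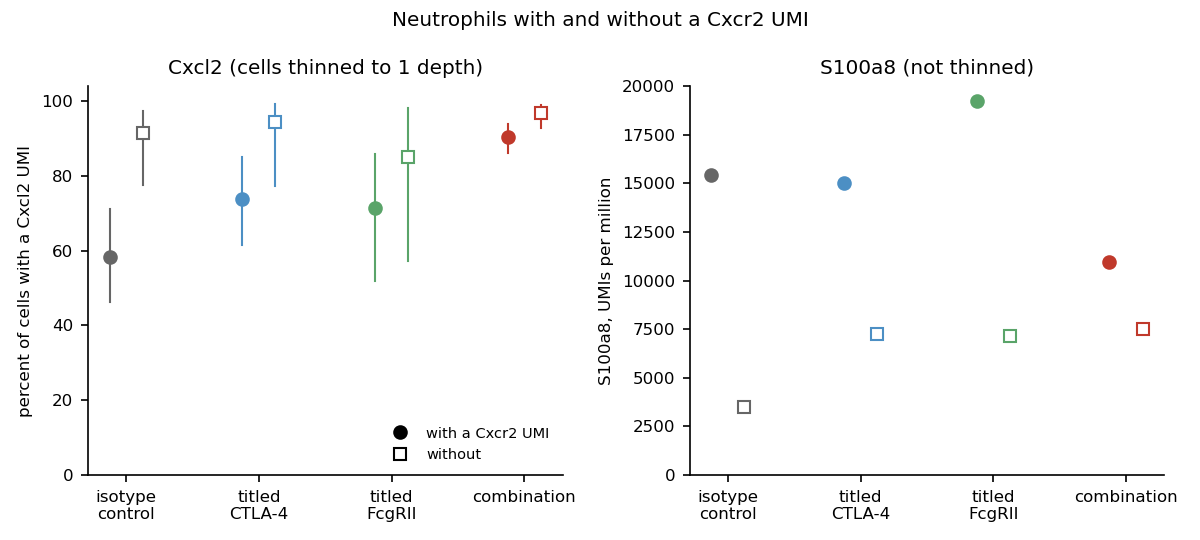
Left, percent of neutrophils with a Cxcl2 UMI after thinning to 1883 UMIs, in cells with (filled circles) and without (open squares) a Cxcr2 UMI, with exact binomial 95% intervals. Right, S100a8 (CPM, not thinned) in cells with and without a Cxcr2 UMI before thinning, which are not the same sets of cells as on the left. In each library the squares lie higher for Cxcl2 and lower for S100a8.

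Macrophages held Cxcl2 and Cxcl3 at far fewer CPM than neutrophils, and all 3 measured ligands were higher in them in the combination. Cxcl2 measured 73.2 CPM in isotype control, 105 in titled anti-human CTLA-4, 79.2 in titled anti-mouse FcgRII and 199 in the combination, 2.72-fold above isotype control (2.64 to 2.8). Cxcl3 measured 9.49, 10.1, 7.57 and 56.8 CPM, a ratio of 5.99 (5.54 to 6.47), and the combination stood alone above the other libraries. Cxcl1, also known as KC, measured 3.5, 4.98, 5.66 and 11.3 CPM, a ratio of 3.22 (2.82 to 3.68). These Cxcl1 levels came from few cells. In isotype control 109 of 3478 macrophages had a Cxcl1 UMI, and the richest 35 held 68.4% of them. In the combination 172 of 3323 did, and the richest 34 held 72.7%. Cxcr2 was at 0.905, 0.695, 0.583 and 4.68 CPM. All 4 members tested were at least 2-fold above isotype control in the combination, where 3.49% of 12162 genes were higher and 3.29% lower, at a median ratio of 0.925 over all genes. Against titled anti-human CTLA-4, Cxcl1, Cxcl3 and Cxcr2 were 2-fold higher (4.37% of genes higher, 2.44% lower), with Cxcl2 at 1.9. Against titled anti-mouse FcgRII, Cxcl2, Cxcl3 and Cxcr2 were (7.13% of genes higher, 2.64% lower), with Cxcl1 at 1.99. In the single-antibody libraries no member was 2-fold from isotype control, where 1.02% and 0.699% of genes were higher and 2.82% and 4.68% lower, and the ratios ran from 0.644 (Cxcr2, titled anti-mouse FcgRII) to 1.62 (Cxcl1, the same library).

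The balance of the ligands differed between classes. For every 100 UMIs of Cxcl2, macrophages carried 4.77 to 7.15 of Cxcl1 over the 4 libraries, and neutrophils 0 to 0.268. For Cxcl3 the figure in macrophages was 13, 9.63, 9.56 and 28.6 in the order above, so that in the combination Cxcl3 gained on Cxcl2, and in neutrophils it was 7.09, 7.79, 4.87 and 10.4.

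Few macrophages carried Cxcl3, and more did so in the combination. It was detected in 55 of 3478 macrophages in isotype control, 72 of 2918 in titled anti-human CTLA-4, 62 of 3382 in titled anti-mouse FcgRII and 447 of 3323 in the combination. At the fixed depth the shares were 0.543%, 1.05%, 0.612% and 5.2% (4.48 to 6.03), beside 0.407%, 0.0103%, 0% and 1.59% of T cells. One macrophage of isotype control held 297 of that library's 745 macrophage UMIs of Cxcl3. Without the richest macrophage of each library the levels were 5.71, 8.97, 5.89 and 55.6 CPM and the ratio of combination to isotype control rose to 9.73. Cxcl2 was present in 7.61%, 9.75%, 7.37% and 15.5% of thinned macrophages and 1.72%, 1.28%, 2.57% and 4.67% of thinned T cells. Cxcr2 was present in 0.0554 to 0.572% of thinned macrophages and in 0 to 0.807% of thinned T cells, so its level in macrophages did not stand above that in cells that should lack it.

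Transcripts of neutrophil markers moved with these results. S100a8 in macrophages was 8.14, 8.77, 13.4 and 71.7 CPM in the 4 libraries, 0.0642 to 0.701% of the neutrophil level. The 14 neutrophil markers, all detected in each library and Ly6g included, summed to 517 to 595 CPM in the first 3 libraries. In the combination they summed to 1158 CPM. These sums were 1.05 to 3.18% of the neutrophil level, larger shares than those of S100a8. Csf3r, 1 of the 14, was at 111, 121, 97.2 and 147 CPM in macrophages. The sums thus need not be neutrophil RNA alone. Macrophages with no UMI of S100a8, S100a9 or Retnlg were 90.8%, 92%, 90.3% and 63% of the class. In these the ratio of combination to isotype control was 2.82 (2.41 to 3.32) for Cxcl1, 1.68 (1.62 to 1.75) for Cxcl2, 7.78 (6.9 to 8.79) for Cxcl3 and 1.62 (0.881 to 3.01) for Cxcr2. When each library's own neutrophil profile, scaled to the S100a8 measured in macrophages, was taken off, the ratios were 3.17 for Cxcl1, 1.84 for Cxcl2 and 5.39 for Cxcl3. That profile amounted to 6.92% of macrophage Cxcl2 in isotype control and 36.9% in the combination, to 13.4% of Cxcl3 and 1.74% of Cxcl1 in the combination, and to 156% of Cxcr2 there. Cxcl1 and Cxcl3 stayed above 2-fold under both ways of handling these transcripts and Cxcl2 did not. In macrophages of the combination S100a8 was 0.701% of the neutrophil level, against 0.49% for S100a9 and 0.45% for Cxcr2. The S100a8 scale took off more Cxcr2 than was measured. With S100a9 or Cxcr2 as the scale less would be taken off there. Whether Cxcl2 would then pass 2-fold was not tested. In T cells, taking off the profile left Cxcl2 at 10.9 CPM in isotype control and 55 in the combination. Cxcl3 was left there at 4.52 and 18.3 CPM, and Cxcl1 at 1.51 and 1.12. Of measured Cxcl3 in T cells, 1 cell held 13 of 20 UMIs in isotype control and 1 cell 49 of 94 in the combination. For Cxcl2, 1 T cell held 127 of 424 UMIs in the combination. A level left after taking off the profile thus need not come from the class itself, and the source of the macrophage UMIs was not tested. In the combination, macrophages without the marker UMIs had a median depth of 23351 UMIs, against 28635 in the others. For Cxcr2, 27 UMIs in the combination and 21 in isotype control remained in macrophages without the marker UMIs, and nothing remained in the combination after the profile was taken off.

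**Figure D3:**
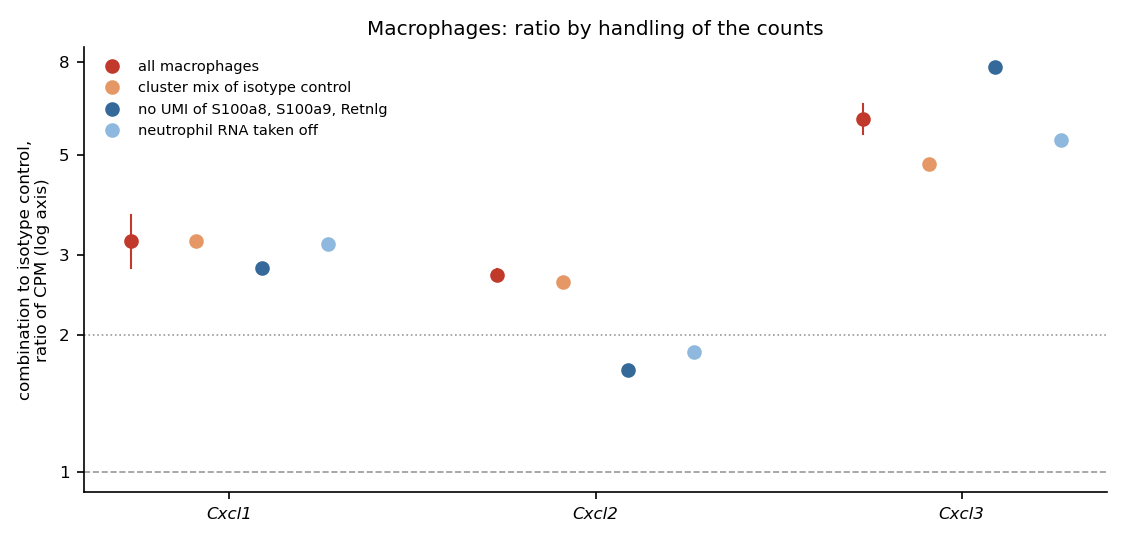
Ratio of combination to isotype control in macrophages (CPM, log axis) for 3 ligands under different handling of the counts, with the 95% counting interval for all macrophages. Dotted and dashed lines mark 2-fold and 1. Cxcl2 falls from 2.72 to 1.68 and 1.84 when neutrophil transcripts are set aside, the latter with a profile scaled to S100a8. Cxcl1 stays between 2.82 and 3.22 and Cxcl3 between 4.77 and 7.78.

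Within macrophages the ligands were uneven across 10 clusters. Neutrophil RNA was not taken off in the values by cluster. Cluster 12, led by Mmp12 and Nos2 (the macrophage elastase and inducible nitric oxide synthase), was the richest, with Cxcl2 at 236 CPM in isotype control and 462 in the combination (ratio 1.96, 1.81 to 2.13) and Cxcl3 at 155 and 280 CPM (1.8, 1.63 to 1.99). Cxcl3 was among its leading genes even though it had been kept out of the clustering. The cluster was 4.37% of macrophages in isotype control and 13% in the combination, and it held 63.6% and 51% of their Cxcl3 UMIs. The isotype control macrophage with 297 Cxcl3 UMIs lay in this cluster. Without the richest macrophage of each library the cluster's Cxcl3 was 58.8 and 268 CPM, the ratio rose from 1.8 to 4.57 (3.92 to 5.35), and its shares of macrophage Cxcl3 were 39.5% and 49.9%, so the order of the shares turned. Cluster 1, led by the heat shock genes Hspa1a and Hspa1b, rose from 170 to 434 CPM for Cxcl2 (2.56), from 14.4 to 127 for Cxcl3 (8.82) and from 6.9 to 31.9 for Cxcl1 (4.63, 3.64 to 5.94). In cluster 0, led by Cbr2 and Folr2, Cxcl2 was 33 and 128 CPM and Cxcl3 0.576 and 16 CPM. In cluster 9, led by the interferon-induced Rsad2 and Ifit3, Cxcl3 was 3 UMIs in isotype control and 422 in the combination, a ratio of 132 with an interval of 44.9 to 643.

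The ratio for Cxcl2 exceeded 1 in 9 of 10 macrophage clusters and reached 2-fold in 5, with a range of 0.542 to 5.74. The exception below 1 was cluster 23, led by Retnla and Saa3, with 29 and 54 UMIs. For Cxcl3 all 8 clusters with 20 or more UMIs in the larger sum exceeded 1 and 6 reached 2-fold, of which 2 had no UMI in isotype control and are lower bounds, while for Cxcl1 6 of 7 exceeded 1 and 3 reached 2-fold. Without the richest macrophage of each library 7 of 8 reached 2-fold for Cxcl3 and 4 of 7 for Cxcl1, cluster 12 being the one gained for Cxcl3. With the clusters weighted as in isotype control, the ratios over all macrophages were 3.22 for Cxcl1, 2.62 for Cxcl2 and 4.77 for Cxcl3, all still above 2-fold.

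**Figure D4:**
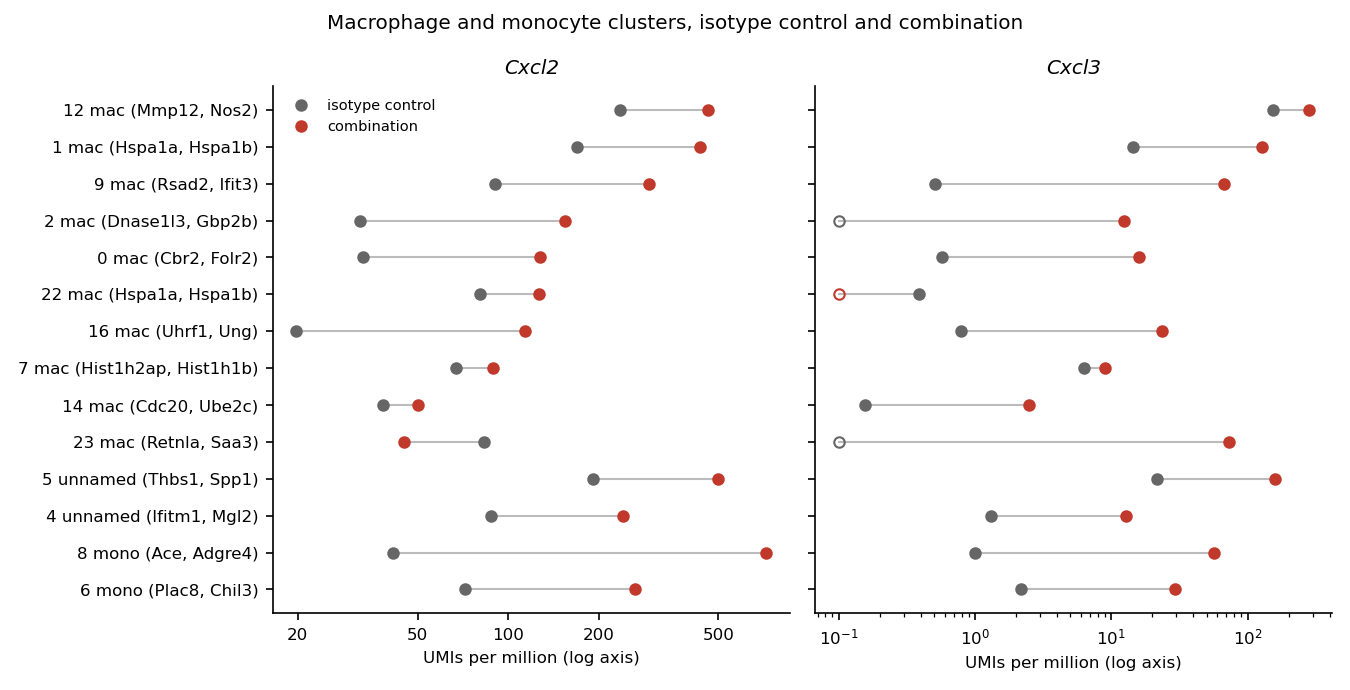
Cxcl2 and Cxcl3 (CPM of the cluster, log axis) in isotype control (grey) and combination (red) for each macrophage, unnamed and monocyte cluster, labelled with 2 leading genes. Open circles, drawn at the left edge, mark clusters with no UMI. Red lies to the right of grey in all rows for Cxcl2 except cluster 23, and in all rows for Cxcl3 except cluster 22, which had 1 UMI. Neutrophil RNA is not taken off.

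Monocytes and the unnamed monocyte or macrophage cells showed the same direction. In monocytes Cxcl2 was 58.1, 107, 86.2 and 395 CPM, 6.81-fold above isotype control in the combination (6.26 to 7.42), and Cxcl3 was 1.64, 4.06, 0.592 and 37 CPM, 22.6-fold higher (14.1 to 38.5) on 18 UMIs in isotype control. Cxcl1 was 0.29 to 2.37 CPM, and Cxcr2 was 3.01, 5.37, 1.58 and 27.4 CPM. All 3 members tested were 2-fold higher, where 3.36% of 10170 genes were higher and 1.13% lower. The same 3, Cxcl2, Cxcl3 and Cxcr2, were 2-fold above titled anti-human CTLA-4 (4.67% of genes higher, 0.611% lower) and titled anti-mouse FcgRII (4.11% higher, 0.402% lower). Against isotype control, only Cxcl3 of 3 tested was 2-fold higher in titled anti-human CTLA-4, at 28 against 18 UMIs (0.489% of genes higher, 2.36% lower), and neither of 2 tested was in titled anti-mouse FcgRII (0.44% higher, 2.01% lower). Monocyte cluster 8, led by Ace and Adgre4 and holding Nr4a1 as nonclassical monocytes do, went from 41.5 to 721 CPM of Cxcl2. Cluster 6, led by Plac8 and Chil3, went from 72.1 to 263 CPM. Measured Cxcr2 went from 4.98 to 50.7 CPM in cluster 8 and from 1.34 to 17.9 CPM in cluster 6. Neutrophil RNA was not estimated for single clusters, and its part in these Cxcl2 levels was not tested. S100a8 in monocytes was 33.6, 69.5, 18.3 and 201 CPM, and how much of it monocytes made themselves was not tested. The neutrophil profile scaled to it amounted to 35.9% of monocyte Cxcl2 in isotype control and 52.1% in the combination. For Cxcl3 it amounted to 90.2% and 57.9%. In the combination S100a8 was 1.97% of the neutrophil level and Cxcr2 2.63%, so the amount taken off depends on the gene used as the scale. For Cxcr2 the profile was 94.1%, 128%, 70.5% and 74.8% in the order above, and for Cxcl3 in titled anti-human CTLA-4 it was 102%. With that profile taken off, the ratio for Cxcl2 was 5.09. Cxcl3 was left at 0.161 CPM in isotype control and 15.6 in the combination, and Cxcr2 at 0.177 and 6.9. Ratios for these genes would therefore rest on almost no level in isotype control.

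In the unnamed cells Cxcl2 measured 132, 320, 203 and 375 CPM and Cxcl3 10, 33, 12.4 and 88.8 CPM, 2.85-fold (2.71 to 3.01) and 8.87-fold (7.46 to 10.6) higher in the combination. All 4 members tested were 2-fold higher there, where 2.78% of 10509 genes were higher and 2.9% lower. Of these, Cxcr2 was at 6.8 CPM against 1.45 in isotype control, where 17 of its 21 UMIs lay in 1 cell. Above titled anti-human CTLA-4, Cxcl3 and Cxcr2 were 2-fold higher (2.97% of genes higher, 1.59% lower), and above titled anti-mouse FcgRII, Cxcl1, Cxcl3 and Cxcr2 were (4.21% higher, 2.99% lower). In titled anti-human CTLA-4, 3 of 4 members were 2-fold above isotype control in these cells, Cxcl2 at 2.43 (2.3 to 2.57), Cxcl3 at 3.3 (2.71 to 4.03) and Cxcr2 at 2.15 (1.21 to 3.91, on 33 against 21 UMIs), where 0.413% of genes were 2-fold higher and 1.55% lower. In titled anti-mouse FcgRII no member was 2-fold higher (0.641% of genes) and Cxcr2 was lower, with 1 UMI against 21 (2.04% lower). S100a8 was 15.1, 13.2, 15.7 and 71.5 CPM in these cells, and the 14 neutrophil markers summed to 702, 808, 748 and 1417 CPM. The sums were 1.44 to 3.89% of the neutrophil level, against 0.097 to 0.699% for S100a8, so they need not be neutrophil RNA alone. The neutrophil profile scaled to S100a8 amounted in the combination to 1.81% of Cxcl1, 19.5% of Cxcl2, 8.57% of Cxcl3 and 107% of Cxcr2. With it taken off, the ratios of combination to isotype control were 2.5 for Cxcl1, 2.47 for Cxcl2 and 8.68 for Cxcl3. No Cxcr2 remained in the combination. In titled anti-human CTLA-4 the ratios were 2.53 for Cxcl2 and 3.45 for Cxcl3. The profile was 41.8% of Cxcr2 there and 87.6% in isotype control. The cause of the differences was not tested. For measured Cxcl2 in the combination, monocytes (395 CPM, 383 to 409) and unnamed cells (375 CPM, 365 to 385) overlapped, and both lay above macrophages. One monocyte held 451 of the 3598 UMIs of its class. With the neutrophil profile taken off, monocytes were left at 189 CPM, unnamed cells at 302 and macrophages at 126.

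Dendritic and tumor or stromal cells contributed little Cxcl2 or Cxcl3. In dendritic cells Cxcl2 was 9.03, 12.1, 15.7 and 34.4 CPM on 19 to 57 UMIs, below the T cell level of 34.3, 18.4, 35.5 and 107 CPM in every library, and 17 of the 19 UMIs of titled anti-mouse FcgRII came from 1 cell. For the combination against isotype control it was the only member with enough UMIs to be tested and was 3.81-fold higher (2.31 to 6.48), where 2.59% of 9137 genes were 2-fold higher and 4.52% lower. One cell held 22 of the 57 UMIs of the combination, and without the richest cell of each library the ratio was 3.36. The neutrophil profile scaled to S100a8 amounted to 127% of dendritic Cxcl2 in isotype control and 23.3% in the combination. No ratio could therefore be formed with it taken off. Cxcl2 was also 2-fold above titled anti-human CTLA-4 (2.84, with 3.51% of genes higher and 2.82% lower, Cxcl1 among the latter) and titled anti-mouse FcgRII (2.2, with 3.57% higher and 2.3% lower). In titled anti-mouse FcgRII against isotype control it was 1.73 (0.453% of genes higher, 2.63% lower). Cxcl3 had 0, 4, 0 and 9 UMIs. In tumor or stromal cells Cxcl2 was 0.589 to 6.49 CPM and Cxcl3 was found only in the combination, with 6 UMIs.

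Among the ligands in tumor or stromal cells Cxcl1 had the most UMIs, 792 against 83 of Cxcl2 and 6 of Cxcl3, at 6.31, 75, 14.6 and 15.9 CPM. In the combination this lay below the neutrophil level (13 to 19.3 against 21.5 to 36). The value of titled anti-human CTLA-4 rested on 1 cell with 389 of 543 UMIs. Without the richest cell of each library the levels were 5.55, 21.5, 7.66 and 13.8 CPM. The combination was 2.52-fold above isotype control (1.58 to 4.2) with all cells and 2.49-fold without the richest. It was the 1 member of 2 tested that was 2-fold higher, where 2.12% of 10338 genes were higher and 1.36% lower. In titled anti-human CTLA-4 both Cxcl1 and Cxcl2 were 2-fold above isotype control (3.08% of genes higher, 0.738% lower), where S100a8 in this class was 23.7 CPM against 2.29 in isotype control and the 14 neutrophil markers summed to 378 against 612 CPM. Their part in this was not tested. Both were also 2-fold above the combination (for the combination, 0.762% higher and 2.15% lower). In titled anti-mouse FcgRII Cxcl1 was 2.32-fold above isotype control (0.986% higher, 1.15% lower), and Cxcl2 was 5.25-fold higher in the combination than there, on 20 against 5 UMIs (2.65% higher, 1.35% lower). In dendritic cells of titled anti-human CTLA-4 the 35 Cxcl1 UMIs lay in 2 of 147 cells, 24 of them in 1 cell. The level was 8.57-fold above isotype control with that cell (3.57 to 24.9, with 0.661% of genes higher and 2.1% lower). Without the richest cell of each library it was 5.39-fold, on 11 against 3 UMIs.

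Cxcl5, also called LIX and known from epithelial cells and platelets, was nearly undetected, with 24 UMIs in 7 of 26785 cells, 12 of them in a single macrophage of the combination. Among the kept cells of these classes its differences between libraries could not be measured at this depth.

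Because classes differ in size and in RNA per cell, the level in a class and its part of a library's transcripts were not the same. Cxcl2 over all kept cells of a library was 103, 146, 97.9 and 332 CPM and Cxcl3 9.25, 12.7, 7.7 and 65.1 CPM. Neutrophils held 28.6% of the Cxcl2 UMIs in isotype control, 26.6% in titled anti-human CTLA-4, 16.4% in titled anti-mouse FcgRII and 39.4% in the combination, although they contributed 0.403%, 0.371%, 0.23% and 1.25% of all UMIs. Macrophages held 36%, 44.2%, 51% and 33.3% of Cxcl2, and 52.1%, 49%, 61.9% and 48.5% of Cxcl3. Clusters of mixed T cell and macrophage profiles held 17%, 3.53%, 8.01% and 10.1% of Cxcl2. Cxcr2 came mainly from neutrophils, with 63.2% of its UMIs in isotype control and 66.3% in the combination.

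**Figure D5:**
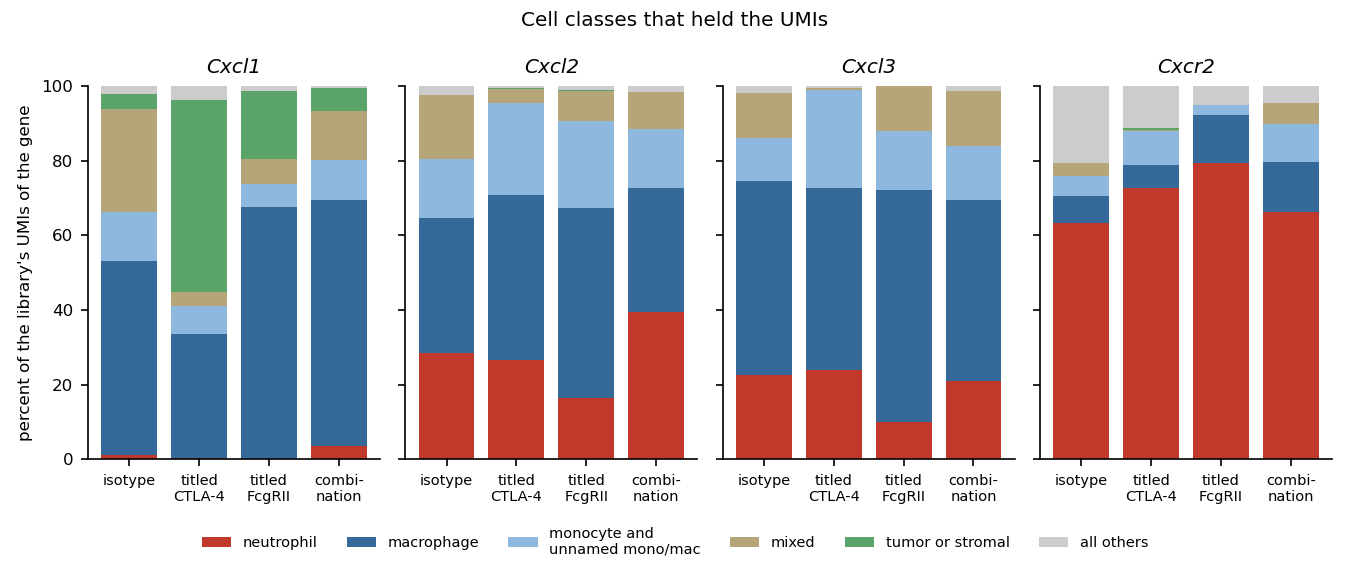
Percent of each library's UMIs of a gene that lay in each cell class. Neutrophils (red) held 39.4% of Cxcl2 in the combination and 28.6% in isotype control, macrophages (dark blue) most of Cxcl1 in 3 of 4 libraries, and tumor or stromal cells (green) 51.4% of Cxcl1 in titled anti-human CTLA-4. Of the 543 UMIs behind that last share, 389 lay in 1 cell.

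Other genes of the pathway were taken from 7 lists, chosen with earlier results of these data known, and are described by counts. For all genes of macrophages 3.49% were 2-fold higher and 3.29% lower, at a median ratio of 0.925. In macrophages, 2 of 6 other attractant receptors were 2-fold above isotype control in the combination, the formyl peptide receptors Fpr1 (12.3 to 50.6 CPM, 4.12-fold) and Fpr2 (68.7 to 284 CPM, 4.14-fold), with Ccr1 at 0.912 and C5ar1 at 0.941. Of 10 tested inducing cytokines and receptors, 3 were 2-fold higher, and Il1a, an alarmin that induces these ligands, was 3.34-fold higher (25.5 to 85.1 CPM). Il1b was 1.79, Tnfrsf1a 1.16 and Il17ra 0.654. None of 10 NF-kB and transcript decay genes was 2-fold higher or lower, at a list median of 1.36, with Nfkbia (the inhibitor IkB-alpha, itself an NF-kB target) at 1.78, Cebpb at 1.53, Rela at 1 and Nfkbiz at 0.888. Of 4 tested other CXC chemokines, Cxcl9 (2.52) and Cxcl10 (2.31), the interferon-induced ligands of CXCR3, were 2-fold higher, with Cxcl16 at 1.07 and Cxcl14 at 0.803.

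None of 12 receptor signal genes in macrophages was 2-fold changed (3.49% of all genes higher and 3.29% lower), at a median of 0.933, with Pik3r5 at 1.16, Fgr at 1.09, Pik3cg at 0.785 and Arrb2 at 0.773. The same held for 6 adhesion genes, with Icam1, the endothelial and myeloid ligand of the beta2 integrins, at 1.85, Itgb2 at 1.64, Itgam at 0.86 and Selplg at 0.819. Among the other ligands and receptors, 2 of 4 tested were 2-fold higher, Ppbp (2.24 to 7.72 CPM) and Cxcr1 (0.178 to 0.61 CPM), both low. Cxcr4, the receptor that holds cells in the bone marrow, was at 0.544 and Pf4 at 0.988.

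For all genes of neutrophils 4.45% were 2-fold higher and 8.15% lower, at a median ratio of 0.866. Of 6 other attractant receptors, 3 were 2-fold higher in neutrophils of the combination, among them Fpr1 at 2.51 and Fpr2 at 2.44, with Ccr1 at 1.38 and C5ar1 at 1.29. Of 7 tested inducing cytokines and receptors 3 were, among them Il1a (210 to 834 CPM, 3.97-fold) and Tnf (433 to 940 CPM, 2.17-fold), with Csf3r, the receptor of the granulocyte growth factor, at 0.909 and Il17ra at 0.871. Of 10 NF-kB and decay genes, Nfkbia (2.46) and Relb (2.21) were 2-fold higher, with Zfp36, which destabilises such transcripts, at 0.915 and Nfkbiz at 0.848. Icam1 was 5.56-fold higher (164 to 911 CPM), the 1 adhesion gene of 6 to pass, with Itgb2 at 1.18, Itgal at 0.718 and Selplg at 0.698. Cxcl10 was 6.66-fold higher, at 151, 1081, 993 and 1005 CPM over the 4 libraries, so that isotype control stood apart from the other 3. Cxcl14 was at 0.452, with Cxcl9 at 1.41 and Cxcl16 at 0.701. Of 12 receptor signal genes 1 was 2-fold lower, the receptor kinase Grk6 (0.484), with Pik3cg at 0.648, Gnai2 at 1.09 and Vav1 at 1.18. None of 3 tested other ligands and receptors passed, with Cxcr1, the sister receptor, at 1.09 and Cxcr4 at 0.717.

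The genes most alike to each member over 28 class and library points, by Pearson correlation of log2(CPM + 1), differed between ligands and receptor. Hcar2 (0.976), Slfn4 (0.967) and Arg2 (0.964) were most alike to Cxcl2, and Arg2 (0.939), Slc40a1 (0.932) and Tgif1 (0.932) to Cxcl3. Hdc, the histamine-forming enzyme (0.985), Il1f9 (0.976) and Chil1 (0.972) were most alike to Cxcr2. Cxcl1 had looser matches in Nisch (0.744), Atp6v1c1 (0.736) and Cd63 (0.712). These are descriptions. The points share libraries and their free RNA, the 4 neutrophil points lie far from the rest, Hcar2 and Hdc were also neutrophil markers, and Cxcl5 was too low to be compared.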

How the data were processed

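Single cells of 4 pooled libraries were measured by probe-based single-cell RNA-seq of fixed cells (10x Flex). The deposited files hold UMI counts per gene and cell, which the authors made with Cell Ranger (7.0.0 in the submitters' notes with mm10, 7.2.0 in the file headers), without further normalization. Kept cells had a minimum of 500 detected genes and no more than 10% mitochondrial UMIs, and per library the top 5% by Scrublet doublet score was removed (1409 of 28290 cells, beside 96 that failed the other filters). Deposited libraries held 129151823 to 196362818 UMIs. Libraries were normalized with SCTransform in Seurat 5.3.0 and integrated by anchors on 30 principal components, without the 5 members among the features. The embeddings were integrated, where the study integrated expression values. Resolution 0.8 gave 27 clusters, named from marker lists with thresholds chosen after seeing the data. The members and lists were chosen with earlier results of these data known.

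UMIs were summed per class and library and given as counts per 1000000 UMIs (CPM) of the class. Levels have exact Poisson 95% intervals, ratios exact conditional ones and shares exact binomial ones. A gene was tested for a 2-fold difference with at least 20 UMIs in the larger sum, and with 0 UMIs on one side a bound was computed from 3 UMIs. For shares, cells were thinned to 1883 UMIs, the 10th percentile of neutrophils, over 100 draws. With 1 library per group no p-value was computed. Named pathway genes had at least 50 CPM in some library and were the 2 highest and 2 lowest ratios of each list in macrophages and neutrophils, with genes of small counts named after their values were seen. The counting step was tested on simulated data. Alternatives covered scaling, clustering, filters, thresholds and the richest cells.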

Additional observations from a re-analysis of the deposited data

How the results depend on the processing

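No paired analysis was possible because each group was 1 library. The direction of the combination against isotype control held for Cxcl1, Cxcl2 and Cxcl3 in macrophages under every alternative run. Cxcl2 in macrophages (2.72) was 2.94 with size factors, 2.89 without integration, 2.59 and 2.58 at resolutions 0.4 and 1.2, 2.86 with 20 principal components, 2.51 with no doublets left out, 3.04 without the richest 1% of cells, 2.95 with macrophages and monocytes summed and, in 3 alternatives chosen after seeing the data, 1.68 in macrophages with no UMI of S100a8, S100a9 or Retnlg, 2.62 at the cluster mix of isotype control and 1.84 with neutrophil RNA taken off. Cxcl3 (5.99) was 7.79 as a mean over cells, 7.03 without integration, 8.57 and 5.11 at the lower and higher resolution, 123 without the richest 1%, which held 97.3% of its isotype control UMIs, 6.78 with monocytes summed, 7.78, 4.77 and 5.39 in the 3 later alternatives, and 9.73 without the richest macrophage of each library, also chosen after seeing the data. Cxcl1 (3.22) was 2.79 without the richest 1%. In neutrophils, Cxcl2 (1.43) was 1.69 with size factors, 1.1 as a mean over cells, 1.48 with the members among the clustering features, 1.32 without integration, 1.77 with 20 components, 1.35 with no doublets left out, 1.92 with at least 1000 detected genes and 1.5 without the richest 1%. Cxcr2 (1.05) was 1.24, 0.866, 0.924 and 1.26 with size factors, as a mean over cells, without integration and with 20 components. The neutrophil count of members 2-fold higher (2) was 1 as a mean over cells, without integration, with no doublets left out and at a minimum of 100 UMIs. The dendritic count (1) was 2 with no doublets left out or no minimum, and 0 at 100 UMIs. Titled anti-mouse FcgRII against isotype control changed sides of 1 in macrophages for Cxcl2 (0.97 with no doublets left out) and for Cxcl3 (1.46 without the richest 1%, 1.03 without the richest macrophage, 1.21 without neutrophil marker UMIs). Except where the construction states it, the cause was not tested. Size factors raised the combination by 0.24 on the log2 scale in neutrophils and 0.11 in macrophages. Over the headline results, 148 alternative values stayed within the counting interval of the main value and 41 moved beyond it. Over the other results, 174 stayed within it and 117 moved beyond it.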

Other observations

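Basophil-like cells of cluster 26, led by Mcpt8 and Gata2, carried a Cxcr2 UMI in 96.6% of 58 cells, at 1281 CPM, while Cxcl2 (579 CPM) came from 5.17% of them. The mixed cluster 3, led by T cell genes and holding C1qa at 5702 CPM, carried Cxcl2 at 112 CPM and Cxcl3 at 23 CPM, and the cell with the most Cxcl3 (318 UMIs) was in a mixed cluster. In NK cells Cxcl2 was 61.4, 0.853, 14.3 and 28.6 CPM in isotype control, titled anti-human CTLA-4, titled anti-mouse FcgRII and the combination, beside S100a8 at 81.2, 1.28, 0.984 and 10.6 CPM.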
